A study of Homo sapiens with 6 samples.

Results

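The nuclear genes for the subunits of the oxidative phosphorylation complexes were compared between MCF10A cells carrying an shRNA against FRY (shFRY) and MCF10A cells carrying a non-targeting shRNA (control). Members were all genes whose symbol in the platform's probe table starts with NDUFA, NDUFB, NDUFC, NDUFS, NDUFV, UQCR, COX4I, COX5, COX6, COX7, COX8 or ATP5, or is SDHA, SDHB, SDHC, SDHD or CYC1, without the NDUFAF assembly factors. This gave 83 genes of 19775, each read from its probe set with the highest mean signal. Of these, 78 encode subunits, close paralogs of subunits or the ATP synthase inhibitor. The other 5 are antisense, divergent or pseudogene transcripts that share a name, and they are described apart. No gene was left out for a low signal, so every member was tested. NDUFS5, NDUFS8, NDUFC2, NDUFA4, NDUFA4L2, SDHB, UQCRFS1 and UQCRH were not analysed here.

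MCF10A is a non-tumorigenic line of human mammary epithelium, and FRY is a very large protein that acts with NDR kinases at microtubules. Per the labels, either shRNA was stably transfected under puromycin, and each group is a single selected clone. An effect of FRY and a difference between clones therefore cannot be told apart. All cells grew as monolayers in mammary epithelial medium with epidermal growth factor (20 ng/ml), insulin (10 ug/ml), hydrocortisone (5 ug/ml) and bovine pituitary extract, and were harvested at 70% confluence. Each group held 3 samples, which differed in passage, and p-values measure only the spread between them. From 40 ng of RNA per sample, amplified and biotin-labelled cDNA was hybridised to a 1-colour array.

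Oxidative phosphorylation runs through a series of complexes in the inner mitochondrial membrane. Complexes I and II pass electrons from NADH and succinate to ubiquinone, complex III hands them to cytochrome c and complex IV to oxygen. Complexes I, III and IV pump protons, and complex V, the ATP synthase, uses the gradient to make ATP. Most subunits are encoded in the nucleus and imported, while a small hydrophobic core is encoded by mitochondrial DNA. The transcription factors NRF1, GABP (of the ETS family) and YY1 are known to bind many of the nuclear promoters.

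For the targeted gene, FRY, the labels state a level about 60% under that of MCF10A cells in the chosen clone. The most clearly lower of the 4 FRY probe sets read 3.86 ± 0.34 in control and 3.11 ± 0.22 in shFRY samples (log2 signal, SD, n = 3 each; difference -0.75, limma adjusted p = 0.0223). The others differed by -0.49, -0.32 and -0.49 and did not pass, and the call of the first was lost without control sample 1 or 3 or shFRY sample 1 or 3 (differences -0.91 to -0.57 over all 6 such fits). Correlations over probe sets were 0.992 to 0.995 within groups and 0.972 to 0.978 between them. All 10 measured mammary epithelial markers of 13 listed had a mean log2 signal of 7 or more, and their mean went from 10.11 to 10.13 in control to 10.91 to 11.05 in shFRY samples. Of the fibroblast, immune, endothelial and adipocyte markers, many lay under the median signal of all probe sets (4 of 8, 5 of 5, 3 of 6 and 5 of 5). The mean of the 8 fibroblast markers was 3.99 to 4.13 in control and 3.26 to 3.35 in shFRY samples, with LUM (-3.94) and DCN (-2.79) lower, FAP (0.74) higher and PDGFRA at means of 1.83 and 1.86. The means were 2.14 to 2.34 and 1.89 to 2.16 for immune, 3.68 to 3.78 and 3.48 to 3.74 for endothelial and 1.997 to 2.126 and 2.050 to 2.152 for adipocyte markers. Single markers moved within these means: KDR (-2.45) and PTPRC (-1.06) were lower, and TEK (1.85) and CIDEC (0.59) higher. Their part in the results was not tested.

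A measure of RNA integrity and amplification also moved with the group, and so with every result below; outside the fit that includes it, its part was not tested. The beta-actin control probe sets at the 3' end exceeded those at the 5' end by 2.33, 2.52 and 2.71 in the control samples and 2.88, 2.89 and 2.84 in the shFRY samples (log2). For GAPDH the same measure was -0.089 ± 0.012 and -0.073 ± 0.026 (SD, n = 3 each).

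Many oxidative phosphorylation genes were lower in shFRY cells, and 0 passed as higher. Of the 83 members, 37 fell (limma adjusted p under 0.05), which is 44.6%. Of all genes tested, 29.8% were called, 16.0% as lower and 13.7% as higher. Many members are abundantly expressed, and among all genes with a mean log2 signal of 7 or more 25.6% were called lower and 23.8% higher. Of the 67 subunit genes at that level 35 were lower, 52.2%, and of the 11 dimmer ones 0.

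The median difference over the members was -0.29, beside 0.027 over all genes; differences are shFRY minus control on the log2 scale throughout. Most changes were modest. A fall of at least 2-fold was called for 4 members, a share near the 4.08% of all genes. These were COX7B, NDUFA2, COX6B1 and the antisense transcript NDUFV2-AS1. The shFRY samples were all under the lowest control sample for 53 members and all over the highest for 2, ATP5F1A and COX7A2L (background 22.4% and 21.9%). Among the 5101 genes with a mean log2 signal of 7 or more, these counts were 1894 and 1710. Among the 67 subunit genes at that level they were 51 and 2. Each sample's median deviation over the members, from the control mean, was 0.035, -0.061 and 0.01 in control and -0.26, -0.34 and -0.27 in shFRY samples. The shFRY samples were all lower in this summary. It restates the same values, with deviations taken from the control mean, and is not separate support.

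The calls depended on how beta-actin was treated. When that 3' to 5' measure entered the model, 2 members passed, COX7B and COX6B1, while 2.43% of all genes were lower and 2.76% higher. The 37 called members had negative differences there, with a median SE of 0.196 in place of 0.0986. The size shrank by more than 1.5 times for COX6A1 (-0.39 to -0.036), ATP5IF1 (-0.46 to -0.19), NDUFB1 (-0.57 to -0.26) and NDUFAB1 (-0.33 to -0.22). Leaving out 1 sample gave 24 to 30 lower members, the fewest without control sample 3, and 23 of the 37 passed in all 6 such fits. In bulk RNA, fewer cells with a message and less of it per cell cannot be told apart.

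**Figure D1:**
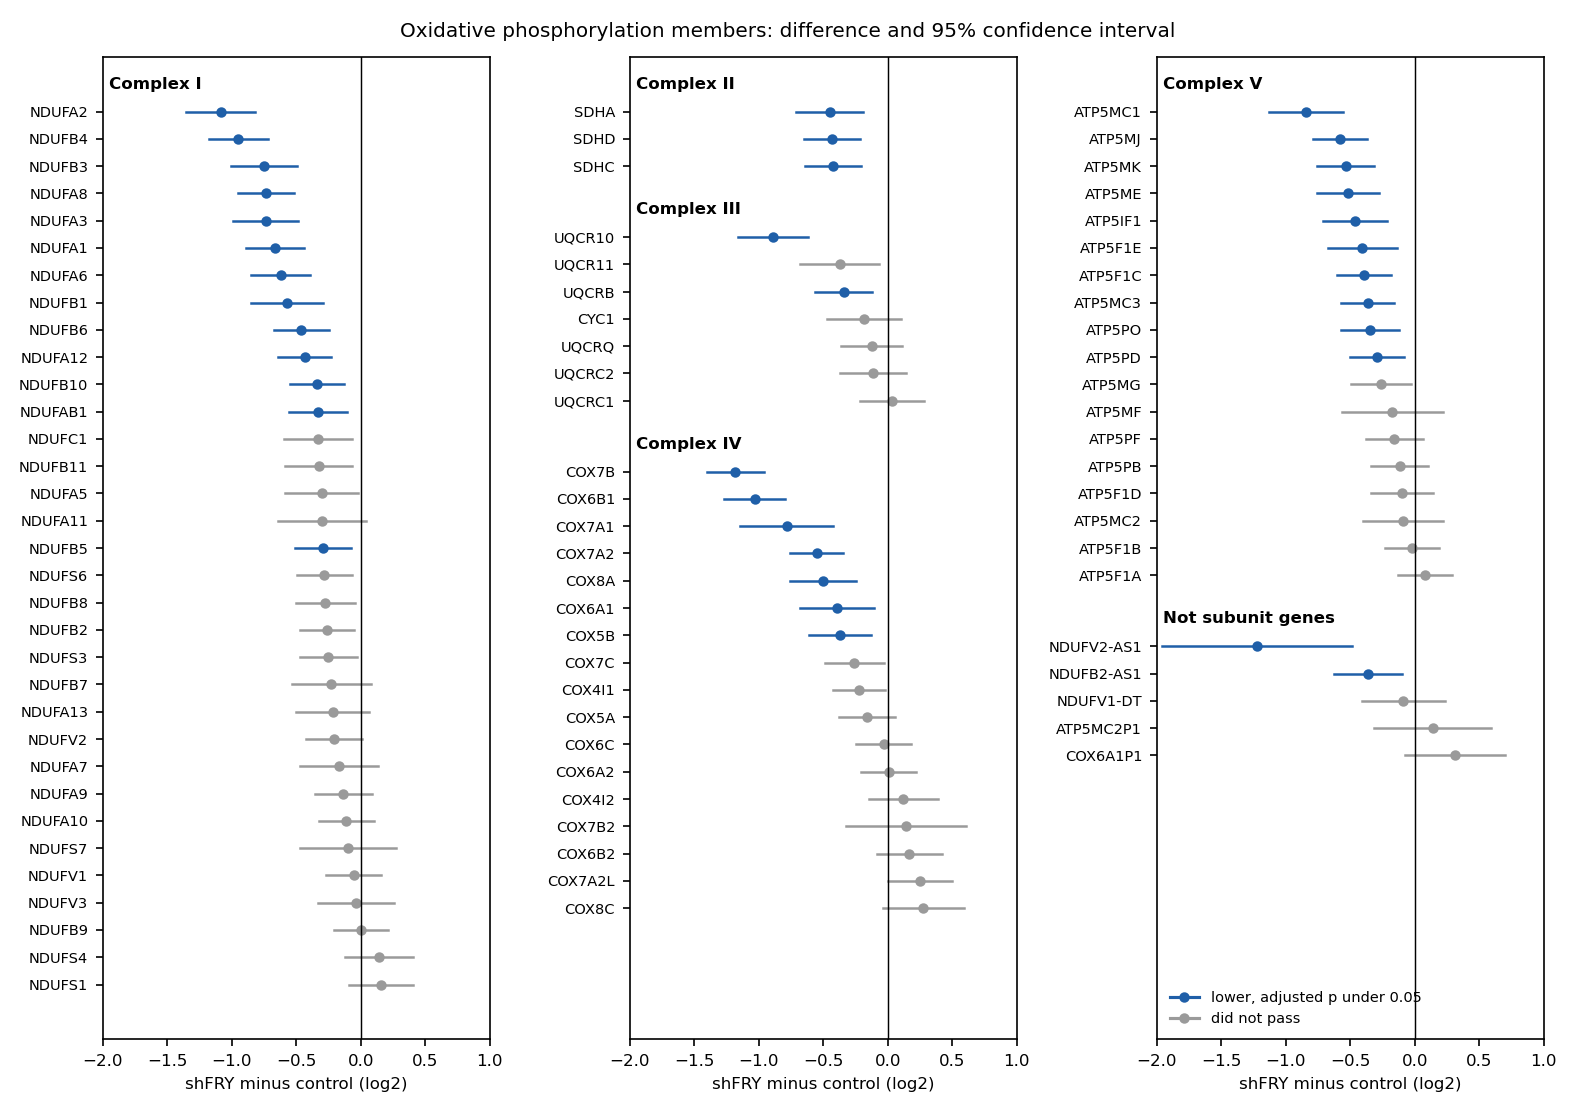
Log2 difference (shFRY minus control, points) with its 95% confidence interval (lines) for the 83 members, by complex. Blue marks the 37 genes that passed as lower and grey the others; the blue intervals lie wholly below 0.

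Known regulators bind many of these promoters, and the stretch before the start of a few called members is shown. Whether these regulators had a part in the falls was not tested. COX7B and COX6B1 had the largest falls in complex IV and NDUFB4 a large one in complex I, and SDHA and SDHD are from the complex in which every measured gene fell. Sequences are RefSeq's (GRCh38.p14), the 250 bases before the annotated start on the + strand, 5' to 3'. Capitals mark matches, on either strand, to the NRF1 motif (GCGCA, any base, GCGC) and the ETS motif (CCGGAAG). The positions are chrX:77899218-77899467 for COX7B, chr19:35648073-35648322 for COX6B1, chr3:120596086-120596335 for NDUFB4, chr5:218070-218319 for SDHA and chr11:112086623-112086872 for SDHD.
COX7B: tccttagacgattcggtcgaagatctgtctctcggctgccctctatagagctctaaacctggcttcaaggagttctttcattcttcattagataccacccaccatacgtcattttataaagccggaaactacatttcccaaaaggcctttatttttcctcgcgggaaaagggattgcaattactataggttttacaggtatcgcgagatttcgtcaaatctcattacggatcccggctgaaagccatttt
COX6B1: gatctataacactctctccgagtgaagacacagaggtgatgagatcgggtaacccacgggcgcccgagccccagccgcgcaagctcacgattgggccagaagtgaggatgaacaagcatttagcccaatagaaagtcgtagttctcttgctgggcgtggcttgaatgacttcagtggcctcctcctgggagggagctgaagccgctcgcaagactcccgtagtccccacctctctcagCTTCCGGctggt
NDUFB4: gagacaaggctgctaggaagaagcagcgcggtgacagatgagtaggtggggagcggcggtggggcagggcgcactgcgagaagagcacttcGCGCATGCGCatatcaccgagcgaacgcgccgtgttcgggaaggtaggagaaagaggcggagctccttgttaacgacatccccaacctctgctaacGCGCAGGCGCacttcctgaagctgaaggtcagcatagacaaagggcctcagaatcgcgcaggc
SDHA: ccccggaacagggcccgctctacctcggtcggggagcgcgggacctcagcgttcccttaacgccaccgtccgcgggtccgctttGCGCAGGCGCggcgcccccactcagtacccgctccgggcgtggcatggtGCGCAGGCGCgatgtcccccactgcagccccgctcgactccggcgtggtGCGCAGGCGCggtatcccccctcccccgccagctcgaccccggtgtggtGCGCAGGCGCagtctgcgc
SDHD: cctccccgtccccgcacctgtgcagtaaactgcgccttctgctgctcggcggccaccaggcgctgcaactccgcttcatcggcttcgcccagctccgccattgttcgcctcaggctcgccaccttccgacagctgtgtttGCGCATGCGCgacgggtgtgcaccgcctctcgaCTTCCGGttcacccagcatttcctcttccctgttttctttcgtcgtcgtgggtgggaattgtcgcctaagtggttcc
SDHA has 4 NRF1 matches here and NDUFB4 2 (a further one, which spans its start, is not in capitals), SDHD has 1 of either kind, COX6B1 an ETS match near its start, and COX7B neither. NDUFA2, which fell further than NDUFB4, is not shown, and neither motif was found around its start. SDHC is not shown either, so the genes shown do not stand for all called members.

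Windows of 300 bases (250 before and 50 after the start) were listed for 66 of the 78 subunit genes. The NRF1 motif occurred in 16 of them (24.2%), against 6.28% of all 27305 listed promoters. Of the 16 genes 11 were called lower (median difference -0.43), and of the 50 without it 19 (median -0.26). The ETS motif occurred in 18 (27.3%, against 10.7%), of which 9 were lower (median -0.33), and 21 of the 48 without it were (median -0.30). The YY1 motif AAGATGGCG occurred in 7 (10.6%, against 1.85%), of which 1, NDUFA6, was lower (median -0.13), and 29 of the 59 without it were (median -0.33). The CCAAT box was no more frequent in the subunit genes (34.8%) than in all promoters (35.7%), and showed a split much like that of NRF1: 14 of the 23 genes with it were lower (median -0.41) and 16 of the 43 without it (median -0.26). No difference between genes with and without a motif was tested. All motifs were searched on both strands; these are counts of letters and do not show that a factor was bound.

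In complex I, the NADH dehydrogenase, 13 of 33 measured genes fell, and all 13 encode accessory subunits. Accessory subunits surround the catalytic core and serve assembly and stability. They had 13 calls among 28 genes (median -0.31) and the core 0 among 5 (median -0.10). Whether the kinds differ was not tested. Core genes did pass as lower under some alternatives: NDUFS3 with trend and robust options or over the brighter probe sets (limma adjusted p = 0.0194 and 0.0459), NDUFV2 with trend and robust options (limma adjusted p = 0.0309) and NDUFS1 by another probe set, without _x_at and _s_at probe sets (-0.44, limma adjusted p = 0.0483).

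NDUFA2, a small subunit of the matrix arm, had log2 signals of 9.19, 9.04 and 9.18 in control and 7.94, 7.97 and 8.25 in shFRY samples. It fell by 1.09 (SE 0.12, limma adjusted p = 0.000302), to a signal 52.9% lower. NDUFB4, of the membrane arm, had 9.45, 9.25 and 9.26 in control and 8.35, 8.40 and 8.36 in shFRY samples, a fall of 0.95 (SE 0.10, limma adjusted p = 0.000268). For both genes the groups were far apart. NDUFB3, also of the membrane arm, fell by 0.75, from 8.38, 8.51 and 8.51 to 7.56, 7.87 and 7.73.

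NDUFA8, which faces the intermembrane space, had nearly equal control signals of 10.28, 10.27 and 10.28 and shFRY signals of 9.50, 9.48 and 9.63, a fall of 0.74 (SE 0.09). The small membrane subunit genes NDUFA3 and NDUFA1 fell by 0.73 and 0.67. The other called accessory genes were NDUFA6 (-0.62), NDUFB1 (-0.57), NDUFB6 (-0.46), NDUFA12 (-0.43), NDUFB10 (-0.34), NDUFAB1, the mitochondrial acyl carrier protein (-0.33), and NDUFB5 (-0.29). NDUFB5 lay just inside the threshold (limma adjusted p = 0.0488) and NDUFS6, at -0.28, just outside it (limma adjusted p = 0.0503). Of 17 fits, counting the main one, NDUFS6 passed as lower in 4. These were trend and robust options, the brighter probe sets, the mean of probe sets and array weights. The call of NDUFB5 was lost without any 1 sample (limma adjusted p between 0.0558 and 0.139), NDUFB10 and NDUFAB1 each passed in 1 of 6 such fits, and the remaining 10 genes in all.

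The core genes gave small differences. NDUFV1, which binds NADH and flavin, had 9.09, 9.08 and 9.18 in control and 9.07, 9.03 and 9.09 in shFRY samples (difference -0.056, 95% confidence interval -0.27 to 0.15). Its groups overlapped. NDUFV2, an iron-sulfur subunit, had a difference of -0.20, and NDUFS3 and NDUFS7, which lie on the path to the quinone site, -0.25 and -0.10. NDUFS1, the large iron-sulfur protein, stood at 0.16 (95% confidence interval -0.091 to 0.40), but its other 4 probe sets had negative differences, 1 of them called (-0.71). The sign for NDUFS1 and for NDUFS7 therefore turned with the choice of probe set, and that of NDUFV1 with the mean of its probe sets. NDUFB9 and NDUFS4 (difference 0.14) were the accessory genes without a negative difference.

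Complex II, the succinate dehydrogenase, belongs to the citric acid cycle too and is encoded wholly in the nucleus. All 3 measured genes fell by similar amounts. SDHA, the flavoprotein that oxidises succinate, had 9.88, 9.79 and 9.89 in control and 9.24, 9.40 and 9.57 in shFRY samples, a fall of 0.45 (SE 0.11, limma adjusted p = 0.0185). SDHA has near-identical pseudogene copies, which makes its signal uncertain. The membrane anchor SDHD read 8.63, 8.63 and 8.53 in control and 8.10, 8.24 and 8.15 in shFRY samples, and the anchor SDHC 11.38, 11.36 and 11.41 and 10.87, 11.03 and 10.99, falls of 0.43 and 0.42. The groups were apart for each gene. The call of SDHA was lost without control sample 1 or 3 or shFRY sample 1 or 2 (limma adjusted p between 0.0502 and 0.0638), and those of SDHC and SDHD held without any 1 sample. With the mean of its probe sets SDHD was at -0.24 and did not pass (limma adjusted p = 0.0671).

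Complex III, the cytochrome bc1 complex, had 2 of 7 genes called lower, a share (28.6%) near the 25.6% among all genes with a mean signal of 7 or more. UQCR10, a small accessory subunit, had 8.79, 8.54 and 8.53 in control and 7.65, 7.67 and 7.89 in shFRY samples, a fall of 0.89 (SE 0.12, limma adjusted p = 0.000883). UQCRB, near the quinone site, fell by 0.34 (SE 0.10, limma adjusted p = 0.0293), from 11.50, 11.38 and 11.39 to 11.17, 11.05 and 11.04, and its 3 other probe sets were called lower as well. Its call held only without shFRY sample 1 among the fits with a sample left out (limma adjusted p between 0.0647 and 0.0921 in the others); in those others UQCR10 was the 1 call of the complex. UQCR11 (-0.37), CYC1, the cytochrome c1 gene (-0.19), UQCRQ (-0.12) and the core protein genes UQCRC2 (-0.11) and UQCRC1 (0.034) did not pass.

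Complex IV, the cytochrome c oxidase, had 7 of 17 genes called lower, with the largest fall of the 78 subunit genes. COX7B had 10.65, 10.56 and 10.60 in control and 9.43, 9.34 and 9.50 in shFRY samples. It fell by 1.18 (SE 0.10, limma adjusted p = 7.86e-05), a signal 55.9% lower, and its other probe set fell too (-0.92). COX6B1, on the cytochrome c side, had 11.79, 11.76 and 11.83 in control and 10.70, 10.69 and 10.91 in shFRY samples, a fall of 1.03 (SE 0.10, limma adjusted p = 0.000211). With the beta-actin measure in the model these genes stood at -1.12 and -1.03 (limma adjusted p = 0.026 and 0.0413).

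Several complex IV subunits exist as a common form and a form restricted to some tissues. Of the 10 common subunit genes 6 fell (median -0.38), and of the 7 restricted forms and paralogs 1 did (median 0.14). The 2 kinds also differed in signal, with median mean log2 signals of 10.81 and 2.69. Of the 11 subunit genes with a mean under 7, 0 were called. Whether kind or signal level had a part was not tested. The called gene of the 7 is COX7A1, known from heart and skeletal muscle. It had 8.71, 8.24 and 8.81 in control and 7.85, 7.87 and 7.69 in shFRY samples, a fall of 0.78 (SE 0.16, limma adjusted p = 0.00661). Its common partner COX7A2 fell by 0.55, from 10.79, 10.71 and 10.72 to 10.18, 10.22 and 10.16. In neither gene did the groups overlap.

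COX8A (-0.50), COX6A1 (-0.39) and COX5B (-0.37) also fell; the latter pair passed in 1 of 6 fits each with a sample left out. For COX6A1 that was the fit without control sample 3 (limma adjusted p between 0.0712 and 0.123 in the others). COX4I1 was at -0.22 and did not pass, while 1 of its dimmer probe sets fell by 1.21. Of 17 fits, counting the main one, COX4I1 passed as lower in 4. These were trend and robust options and the brighter probe sets (limma adjusted p = 0.00225 and 0.0446). The others were the mean of its probe sets (-0.40, limma adjusted p = 0.00693) and the dimmer probe set, without _x_at and _s_at probe sets (limma adjusted p = 0.000276). COX6C had 12.26, 12.28 and 12.33 in control and 12.33, 12.21 and 12.23 in shFRY samples, overlapping groups with a difference of -0.03 (95% confidence interval -0.24 to 0.18).

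The restricted forms COX6A2 (0.0092), COX4I2 (0.12), COX7B2 (0.14), COX6B2 (0.17) and COX8C (0.28) did not pass, and all had low signals; the sign of COX6A2 turned with a second quantile normalization. COX7A2L, known for its place in respiratory supercomplexes, had 10.55, 10.52 and 10.62 in control and 10.71, 10.98 and 10.76 in shFRY samples. Its shFRY samples were all higher, yet its difference of 0.25 did not pass (limma adjusted p = 0.123), except with limma's trend and robust options (limma adjusted p = 0.0182).

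Complex V, the ATP synthase, had 10 of 18 genes called lower, and 5 without control sample 3. It consists of the catalytic F1 head, a ring of c subunits that turns in the membrane, and a stalk that holds the head. ATP5MC1, ATP5MJ, ATP5MK, ATP5ME and ATP5IF1 passed in all 6 fits with a sample left out.

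The c-ring genes encode the same mature protein behind different import sequences. ATP5MC1 had 9.91, 9.50 and 9.70 in control and 8.94, 8.77 and 8.86 in shFRY samples, a fall of 0.84 (SE 0.12, limma adjusted p = 0.00148). ATP5MC3 fell by 0.37, from 11.95, 11.99 and 12.00 to 11.62, 11.59 and 11.63, as did its other 2 probe sets. ATP5MC2 had 8.01, 7.57 and 7.87 and 7.82, 7.60 and 7.76, overlapping groups with a difference of -0.09 (95% confidence interval -0.40 to 0.22). Whether these genes differ in their response was not tested. ATP5MC3 missed the threshold without control sample 2 or 3 (limma adjusted p = 0.0534 and 0.0573).

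In the F1 head the genes of the alpha and beta subunits, which form the catalytic sites, showed small differences. ATP5F1A had 11.57, 11.60 and 11.60 in control and 11.70, 11.60 and 11.70 in shFRY samples, a difference of 0.082 (95% confidence interval -0.13 to 0.29). ATP5F1B had 11.88, 11.88 and 11.83 and 11.81, 11.81 and 11.91, overlapping groups with a difference of -0.019 (95% confidence interval -0.23 to 0.19) whose sign turned with median centring or a second quantile normalization. ATP5F1C and ATP5F1E, of the central stalk, fell by 0.39 and 0.41, and ATP5F1D was at -0.10. The call of ATP5F1E was lost without control sample 1 or 3 or shFRY sample 2 or 3 (limma adjusted p between 0.0567 and 0.109), and that of ATP5F1C without control sample 3 (limma adjusted p = 0.054). With the mean of its probe sets ATP5F1C was at -0.23 and did not pass (limma adjusted p = 0.0759).

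Small membrane subunits of complex V fell: ATP5MJ by 0.58, from 11.11, 11.04 and 11.11 to 10.54, 10.45 and 10.53, ATP5MK by 0.54 and ATP5ME by 0.52. ATP5IF1, the inhibitor that stops the enzyme from running backwards, fell by 0.46 (SE 0.11, limma adjusted p = 0.0137), from 10.04, 9.87 and 9.74 to 9.41, 9.47 and 9.38. The peripheral stalk genes ATP5PO (-0.35) and ATP5PD (-0.29) fell, passing in 1 and 0 of 6 fits with a sample left out. ATP5MG (-0.26), ATP5MF (-0.17), ATP5PF (-0.16) and ATP5PB (-0.12) did not pass. ATP5MF was read from a single dim probe set with a mean log2 signal of 3.39, so its value says little about this gene.

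**Figure D2:**
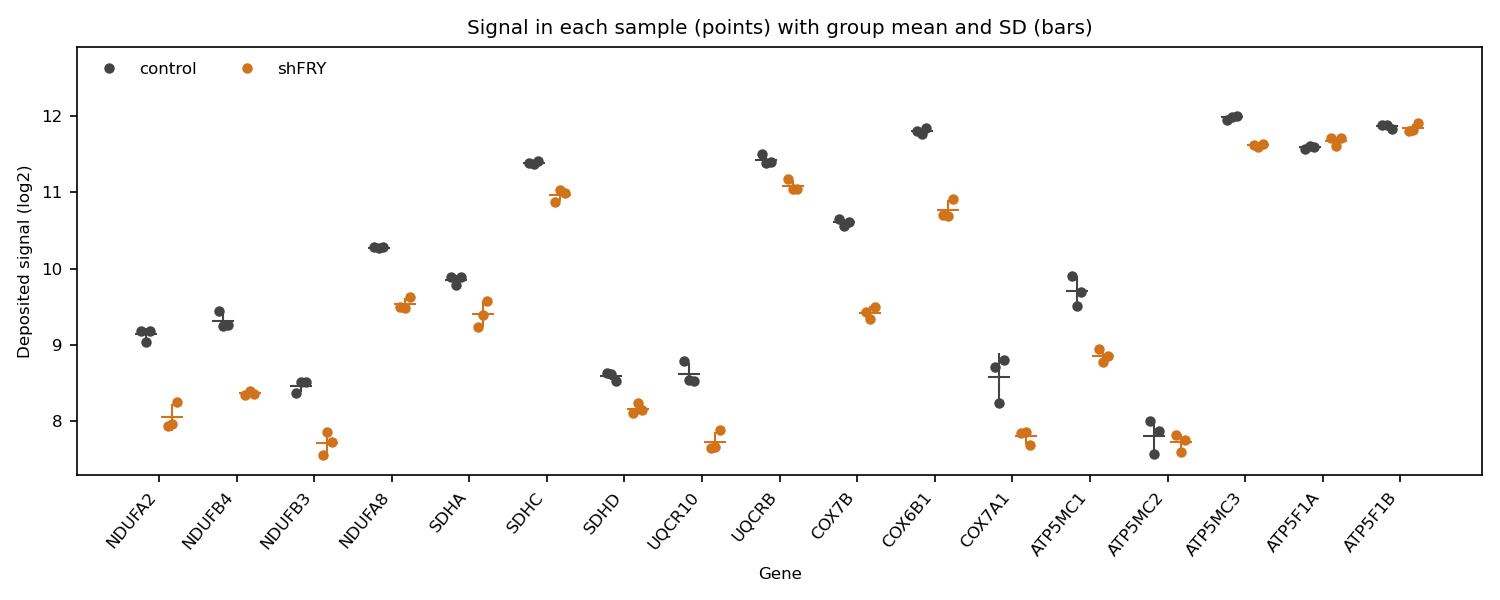
Deposited log2 signal of selected members (horizontal) in the 3 control samples (dark points) and 3 shFRY samples (orange points), with group mean and SD as bars. The groups lie apart for the called genes, such as COX7B, and overlap for ATP5MC2 and ATP5F1B.

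The 5 members that are not subunit genes were dim. The antisense transcript NDUFV2-AS1 had 3.74, 4.05 and 3.88 in control and widely spread signals of 3.45, 2.59 and 1.97 in shFRY samples, a fall of 1.22 (SE 0.32, limma adjusted p = 0.0213). NDUFB2-AS1 fell by 0.36. These calls held in 2 and 1 of 6 fits with a sample left out. NDUFV1-DT (-0.087) and the pseudogenes ATP5MC2P1 (0.14) and COX6A1P1 (0.31) did not pass.

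Further probe sets read the same samples at other places of a message. In the fit over probe sets, 63 of the 158 probe sets of the members were called lower and 1 higher, against 12.2% and 10.9% of all probe sets. Another probe set was called lower for 14 of the 22 called members with several, and higher for 0. Of the uncalled members, 8 had another probe set called lower and 1 had one called higher. That 1 is NDUFB2, with 1 probe set lower (-0.35) and a dimmer one higher (0.49). For NDUFA2 only the bright probe set fell, and the dim ones were at 0.20 and -0.036. Likewise the other, dimmer probe sets of NDUFB4, UQCR10 and NDUFB6 were at -0.032, -0.045 and 0.080. These genes lost their calls when _x_at and _s_at probe sets were left out, as did SDHC (at -0.22). For ATP5F1C all 3 bright probe sets fell and the dim one was at 0.26.

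**Figure D3:**
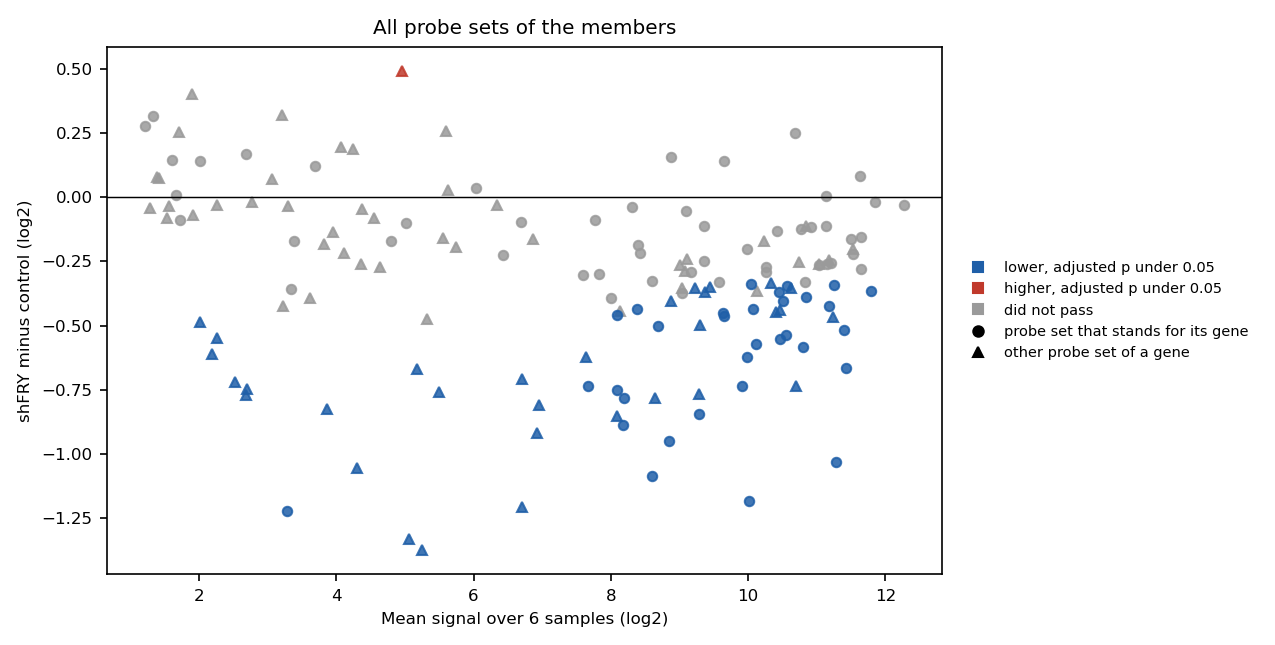
Log2 difference (vertical) against mean log2 signal over 6 samples (horizontal) for the 158 probe sets of the members. Circles stand for their gene and triangles are its further probe sets; 63 are lower (blue) and 1 higher (red).

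Other genes the complexes depend on were described by list. Of 48 assembly factors, which build the complexes without staying in them, 19 fell and 0 rose (median -0.25), that is 39.6% lower beside 16.0% of all genes and 25.6% of those with a mean signal of 7 or more. COA3, which acts in the synthesis of a mitochondrially encoded complex IV subunit, had 9.05, 8.62 and 8.64 in control and 7.36, 7.38 and 7.44 in shFRY samples, a fall of 1.37 (SE 0.13, limma adjusted p = 0.000186). TMEM70, needed for complex V, fell by 0.98, SCO2, a copper chaperone of complex IV, by 0.95 and PET100, also of complex IV, by 0.91. By complex, 3 of 14 factors fell for complex I, 3 of 4 for II, 1 of 6 for III, 9 of 21 for IV and 3 of 3 for V, of which the shares for I (21.4%) and III (16.7%) are near those of all genes.

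Of 20 genes of mitochondrial DNA expression and biogenesis 3 fell and 1 rose (median -0.016), a share lower of 15% beside 16.0% of all genes. PPARGC1B, a coactivator of respiratory genes, fell by 1.02, TEFM and MTERF1, which act in mitochondrial transcription, by 0.75 and 0.73, and LRPPRC, which stabilises mitochondrial messages, rose by 0.39. The regulators NRF1 (0.40, limma adjusted p = 0.0595), GABPA (0.23) and YY1 (0.021), chosen after their values were seen, did not pass. Of 21 genes of coenzyme Q and other electron carriers 7 fell and 2 rose (median -0.10). The share lower was 33.3%, beside 16.0% of all genes and 25.6% of those with a mean signal of 7 or more. COQ10A (-1.19), PDSS1 (-0.92), COQ8A (-0.90) and ETFDH (-0.60) fell most, while COQ10B (0.52), the paralog of COQ10A, and SQOR (0.29) rose. PDSS1 did not pass with the mean of its probe sets (-0.49) or without _x_at and _s_at probe sets (-0.057), and COQ8A was lost without control sample 1 or 3 (limma adjusted p = 0.0734 and 0.0618).

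Of 12 citric acid cycle genes 3 fell and 0 rose (median -0.20): IDH3A (-0.53), OGDH (-0.41) and IDH2 (-0.40). This share of 25% is close to the 25.6% among all genes with a mean signal of 7 or more. Without _x_at and _s_at probe sets IDH3A (-0.33) and LRPPRC (0.31) did not pass. OGDH and IDH2 missed the threshold without any 1 control sample or shFRY sample 2. Of 6 ADP/ATP carrier, phosphate carrier and porin genes 2 fell, the ADP/ATP carrier SLC25A4 (-0.83) and the porin VDAC3 (-0.48). That is 33.3% of a small list, beside 16.0% of all genes and 25.6% of those with a mean signal of 7 or more. The 13 protein genes of mitochondrial DNA were not analysed here.

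Further sets of abundant proteins were counted after the values of the members were seen, and without a test. Mitochondrial ribosomal protein genes had 28 lower and 3 higher of 75 (median -0.24). Proteasome genes had 10 and 1 of 34 (median -0.17), and cytoplasmic ribosomal protein genes 4 and 0 of 56 (median -0.004). The shares lower were 37.3%, 29.4% and 7.14% in this order, beside 16.0% of all genes and 25.6% of those with a mean signal of 7 or more.

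**Figure D4:**
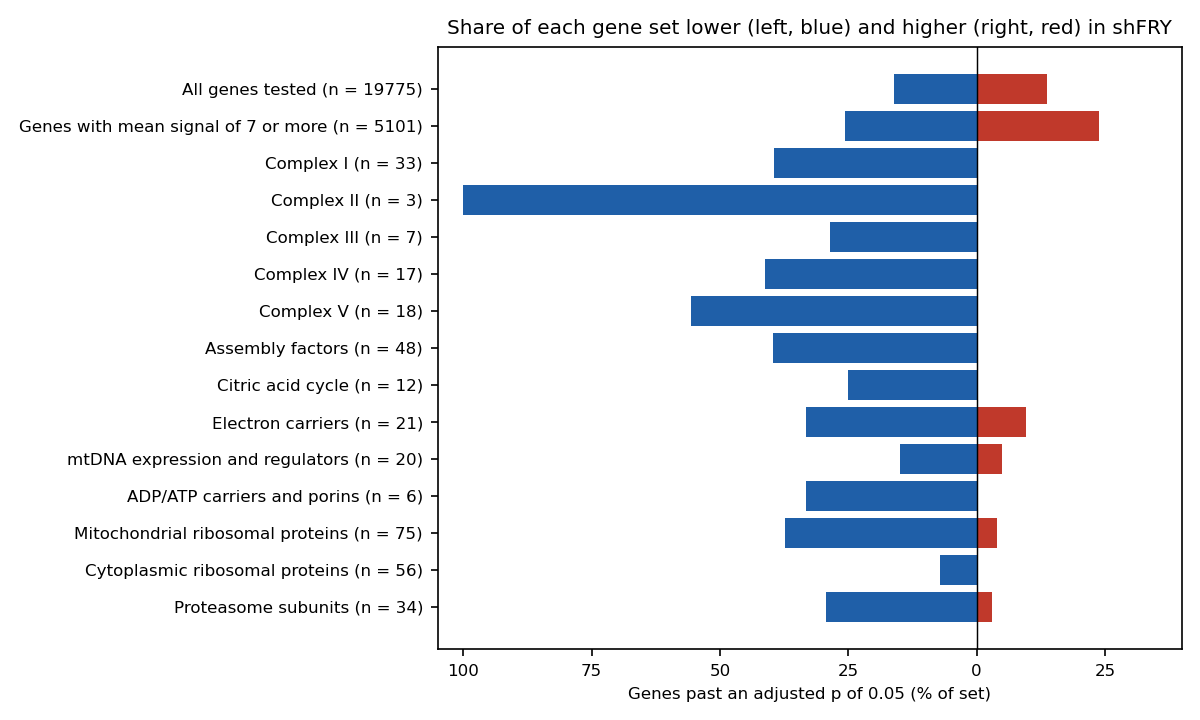
Share of each gene set, in percent, called lower (blue, left) and higher (red, right) in shFRY at a limma adjusted p of 0.05. Complexes I to V reach 28.6% (complex III) to 100% (complex II, 3 genes) lower with 0 higher. All genes stand at 16.0% and 13.7%, and genes with a mean signal of 7 or more at 25.6% and 23.8%. Complex III is near the latter share lower.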

How the data were processed

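The deposited values are probe set signals on the log2 scale, made with RMA per the submitters' processing notes; its version and settings were not stated there. They were used as deposited. Probe sets were named from the platform's table, with symbols updated through Entrez IDs to RefSeq (GRCh38.p14): 41091 had 1 symbol, 1801 several and 11721 none listed, and only the first kind was used by gene. Each gene was read from its probe set with the highest mean. Groups came from the sample titles. The comparison used limma 3.58.1 (R 4.3.3; a linear model with empirical Bayes moderation and no filter), with Benjamini-Hochberg adjustment across 19775 genes, or 54613 probe sets for single probe sets and FRY, at 0.05. Exact permutation of 3 against 3 samples cannot go below 0.1 and was not used. The script was tested on simulated data.

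Members and lists were chosen with earlier results of these data known. Named genes are FRY; per complex, up to 6 called members by size and the one with the highest mean; isoforms and partners; core, F1 and c-ring genes; members nearest the threshold or with opposed probe sets; and up to 4 called genes of each other list. Other members are given for completeness. Alternatives were median centring, a second quantile normalization, trend and robust options, the brighter probe sets, the mean of probe sets, omission of _x_at and _s_at probe sets, array weights, a replicate block, the beta-actin covariate, a 1.5-fold minimum and leaving out each sample.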

Additional observations from a re-analysis of the deposited data

How the results depend on the processing

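Leaving aside the beta-actin covariate and the 1.5-fold minimum, 14 alternatives remain, and under these 17 of the 37 called members passed wherever they were measured. The count of members called lower was 33 with median centring, 37 with a second quantile normalization, 49 with trend and robust options, 46 of 76 over the brighter probe sets, 41 with the mean of probe sets, 25 of 71 without _x_at and _s_at probe sets, 37 with array weights and 29 with the replicate block. The number of arrays limits the precision.

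With the beta-actin measure as a covariate, the total of all genes called was 1026, and 2 members passed: 0, 0, 0, 2 and 0 in complexes I to V, with a member median of -0.229. Assembly factors had 4 lower, mitochondrial DNA expression 1 lower and 0 higher, and electron carriers (0 lower, 0 higher), the citric acid cycle (0) and carriers (0) had none; member probe sets had 2 lower and 0 higher, and the called FRY probe set was at -0.38. With a 1.5-fold minimum, all genes called came to 3556 and members to 13 (7, 0, 1, 3 and 1 by complex), with 0 mitochondrial DNA expression genes higher, 4 electron carriers lower and 0 higher, 0 citric acid cycle genes, 1 carrier, and 32 member probe sets lower and 0 higher. Trend and robust options gave 20 calls in complex I, 1 member higher (COX7A2L, 1 in complex IV), 1 assembly factor and 3 mitochondrial DNA expression genes higher, and 2 member probe sets higher. Without _x_at and _s_at probe sets, complexes II and III had 1 and 1 calls, the citric acid cycle 1, and 1 assembly factor, 1 electron carrier and 0 mitochondrial DNA expression genes were higher. The latter count was 3 with median centring, 3 over the brighter probe sets and 2 with array weights; the citric acid cycle had 1 lower with median centring, and 1 electron carrier was higher with the mean of probe sets.

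With the replicate number as a block, complex III had 1 call and electron carriers 1 higher. The called FRY probe set (-0.75, limma adjusted p = 0.0522) did not pass there, while another 2 did (-0.49 and -0.49, limma adjusted p = 0.0263 and 0.0365). Deviations of same-numbered samples correlated at -0.000192, -0.00242 and 0.00684, so the numbers were not taken as pairs.

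Leaving out each sample gave 24 to 30 members lower, 1 to 2 in complex III, 5 to 8 in complex V, 1 to 3 citric acid cycle genes lower, 1 electron carriers and 1 to 2 mitochondrial DNA expression genes higher, and 39 to 50 member probe sets lower and 0 to 2 higher. FRY probe sets ranged over -0.91 to -0.57, -0.62 to -0.37, -0.42 to -0.24 and, most widely, -0.69 to -0.24. The uncalled genes ATP5MC2 (-0.211 to 0.00575), NDUFS7 (-0.244 to 0.039), COX6A2 (-0.0134 to 0.0441) and COX7B2 (-0.116 to 0.281) changed sign.

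Signs also turned for ATP5F1B (0.00835 with median centring, 0.0394 with a second quantile normalization and 0.0402 with the covariate) and COX6A2 (-0.0528, second quantile normalization). With the mean of probe sets NDUFS7 was at 0.044, NDUFV1 at 0.00707 and NDUFS1 at -0.258. Without _x_at and _s_at probe sets, where another probe set stands for the gene, NDUFA2 was at 0.195, NDUFB6 at 0.0798, ATP5F1C at 0.256, ATP5F1A at -0.0341, NDUFS7 at 0.188 and NDUFS1 at -0.444. With the covariate COX8C was at -0.0682, ATP5MC2 at 0.0479 and NDUFS7 at 0.105. Apart from the change of probe set, the cause was not tested.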
